A study of Mus musculus with 12 samples.

Results

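The 9 transcription factor genes described here, Spi1, Cebpa, Cebpb, Maf, Irf8, Klf2, Klf4, Klf6 and Runx1, were chosen by name as factors of the macrophage lineage. They are 9 of 37620 gene identifiers counted in 12 RNA sequencing libraries of primary macrophages that had been differentiated for 7 days from the bone marrow of C57BL/6 mice. The macrophages were incubated in normoxia or in hypoxia (1% oxygen), each with 25 mM NaCl, the salt control, or 25 mM lactate. The 4 groups, of 3 libraries each, are called normoxia-NaCl, hypoxia-NaCl, normoxia-lactate and hypoxia-lactate, and the labels name no genetic change. The comparisons ask what low oxygen, lactate and their combination do to the transcripts. Nothing in the labels tells whether libraries of 1 group stem from different animals or dishes. The p-values therefore reflect the scatter among these samples alone, which could be technical. In RNA from a whole culture, fewer cells making a transcript and less of it per cell cannot be told apart.

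PU.1, the product of Spi1, is the pioneer factor that opens macrophage enhancers, and it does so together with C/EBP factors, RUNX1 and IRF8. C/EBPα, IRF8 and KLF4 steer progenitors to the monocyte fate, while C/EBPβ, c-MAF and the KLF factors adjust what a mature macrophage expresses. Oxygen is read by hypoxia-inducible factors (HIF), which bind a short core sequence, RCGTG, that overlaps the E-box CACGTG.

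Of the 9 genes, 7 had an entry among the RefSeq promoters of GRCm38.p6, a build other than the mm9 of the deposited counts; Spi1 and Maf had none. Each promoter window ran from 250 bases before the start of a transcript to 50 after it. The 250 bases before the start are shown for Klf6 and Runx1, whose levels separated all 6 hypoxia from all 6 normoxia libraries in the results that follow, and for Cebpa, whose levels did so in 11 libraries. Capitals mark every ACGTG or GCGTG on either strand, and every sequence is written 5′ to 3′ along its gene.
Klf6 (chr13:5861239-5861488, plus strand): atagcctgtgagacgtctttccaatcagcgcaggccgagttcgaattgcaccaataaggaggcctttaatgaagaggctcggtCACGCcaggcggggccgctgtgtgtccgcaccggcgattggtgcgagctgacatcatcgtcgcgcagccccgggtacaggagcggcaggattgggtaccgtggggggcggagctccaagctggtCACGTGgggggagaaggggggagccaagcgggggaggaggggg
Runx1 upstream start (chr16:92826075-92826324, minus strand): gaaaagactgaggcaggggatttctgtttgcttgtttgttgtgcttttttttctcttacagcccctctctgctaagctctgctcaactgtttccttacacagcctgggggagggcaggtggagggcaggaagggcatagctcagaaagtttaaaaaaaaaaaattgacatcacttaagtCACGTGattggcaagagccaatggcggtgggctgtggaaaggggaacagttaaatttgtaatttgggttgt
Runx1 downstream start (chr16:92697330-92697579, minus strand): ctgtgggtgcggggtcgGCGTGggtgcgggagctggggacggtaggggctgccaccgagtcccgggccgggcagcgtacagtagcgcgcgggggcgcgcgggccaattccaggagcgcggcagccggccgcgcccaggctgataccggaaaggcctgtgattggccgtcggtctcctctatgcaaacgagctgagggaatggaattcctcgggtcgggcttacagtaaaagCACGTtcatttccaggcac
Cebpa (chr7:35119043-35119292, plus strand): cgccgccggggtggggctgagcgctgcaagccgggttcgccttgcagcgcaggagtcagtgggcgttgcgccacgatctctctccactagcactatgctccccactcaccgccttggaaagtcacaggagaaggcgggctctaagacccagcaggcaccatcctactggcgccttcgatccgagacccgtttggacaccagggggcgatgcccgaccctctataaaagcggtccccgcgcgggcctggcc
Klf6 held the palindrome CACGTG 43 bases before its start and GCGTG on the opposite strand 167 bases before it. The upstream start of Runx1 had CACGTG at 71 bases, and the downstream start had ACGTG on the opposite strand at 19 bases and GCGTG at 233. Neither ACGTG nor GCGTG was present in the Cebpa window, which had TATAAA 30 bases before the start. A match is a stretch of letters and not a shown binding site: over 32851 RefSeq promoter windows of 300 bases, ACGTG on either strand was present in 19.6%, GCGTG in 32.4% and at least one of them in 43.8%. At least one of them was present for 5 of the 7 genes: besides Klf6 and Runx1 these were Klf4, Cebpb (GCGTG 10 bases before the start) and 1 start of Irf8 (ACGTG at 186 bases before it). The 43.8% counts single windows, while Irf8 and Runx1 had 2 each. GC made up 54.7% to 80.7% of the windows of the 7 genes, except 45% in the upstream Runx1 one. The median over all windows was 52.7%, and the part of GC in the matches was not tested. CACGTG, which was looked for after the matches were seen and overlaps ACGTG on both strands, was in 7.15%, and also lay 182 bases before the start of Klf4. The PU.1 box GAGGAA (28.3% of windows) was found only in the downstream Runx1 window, and the C/EBP sequence TTNNGCAA (10.8%) in none of those of the 7 genes. TATAAA (13.6%) was present for Cebpa, for 1 of 2 starts of Irf8 (31 bases before it) and for Cebpb, where it lay 21 bases after the start.

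Gene counts summed to 22705978 in the shallowest and 49885085 in the deepest library. Levels are given as CPM, each count relative to its library's total after scaling by edgeR's TMM factors. Hypoxia-lactate 3 stood apart: 11437 genes had at least 10 counts against 13198 to 14767 elsewhere, mitochondrial transcripts made up 0.486% of its counts against 2.04% to 4.75%, and its median Spearman correlation with other libraries was 0.906 against 0.966 to 0.987. Its scaling factor was the lowest, 0.742, and its summed CPM of the 9 genes was 2529 against 1419 to 1918 in the other 11. Normoxia-NaCl 1, with the 4.75% mitochondrial share, was the next most distant. Scatter within groups, as edgeR's common coefficient of variation, was 38.2% over 12 libraries, 24.3% once hypoxia-lactate 3 was dropped and 21.2% once both were. All 10 macrophage markers were tested genes and summed to between 36369 and 51043 CPM per library, though Mrc1 averaged only 12.1 CPM and Mertk 17.3 CPM. Markers of other cells were low: neutrophils 149 to 374 CPM with the highest in hypoxia-lactate 3, dendritic cells 93.2 to 458, endothelium 142 to 296, fibroblasts 32.1 to 118, lymphocytes 16.8 to 58.9, progenitors 17.6 to 37.2, and mast, erythroid and megakaryocyte cells 1.42 to 55.7. The lists differ in length, and Mmp8 alone averaged 132 CPM among the neutrophil markers. Xcr1, Emcn, Ms4a1, Mcpt4 and Tpsb2 had 0 counts in all libraries.

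The 9 genes were well covered, with 889 to 28792 counts per library and gene, so that counting error was at most 3.35%. Over the 12 libraries each gene spanned at least 1.63-fold. Within a group the spread could be small, such as 1.17% (SD over mean) for Cebpb in hypoxia-NaCl. Compared per kilobase of exon, using GENCODE models of GRCm38 since the sources used here do not name the authors' annotation, the mean level over the 12 libraries was highest for Spi1, 171 CPM per kb. Cebpb followed at 120, Cebpa at 81.0 and Klf6 at 57.1. Irf8 (31.1), Klf4 (30.6) and Klf2 (28.4) lay close together, and Runx1 (10.4) and Maf (6.76) were lowest. Spi1 was at the 98.1th percentile of CPM among the 14616 tested genes. Exons of Cebpa, Cebpb, Maf and Runx1 overlap an antisense gene in those models. For Cebpb it is Tmem189, itself at 239 to 567 CPM, and the Maf partner Gm15655 had 0 counts. The sources used here do not state whether counting used strand, and without it the reads of such pairs cannot be told apart.

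**Figure D1:**
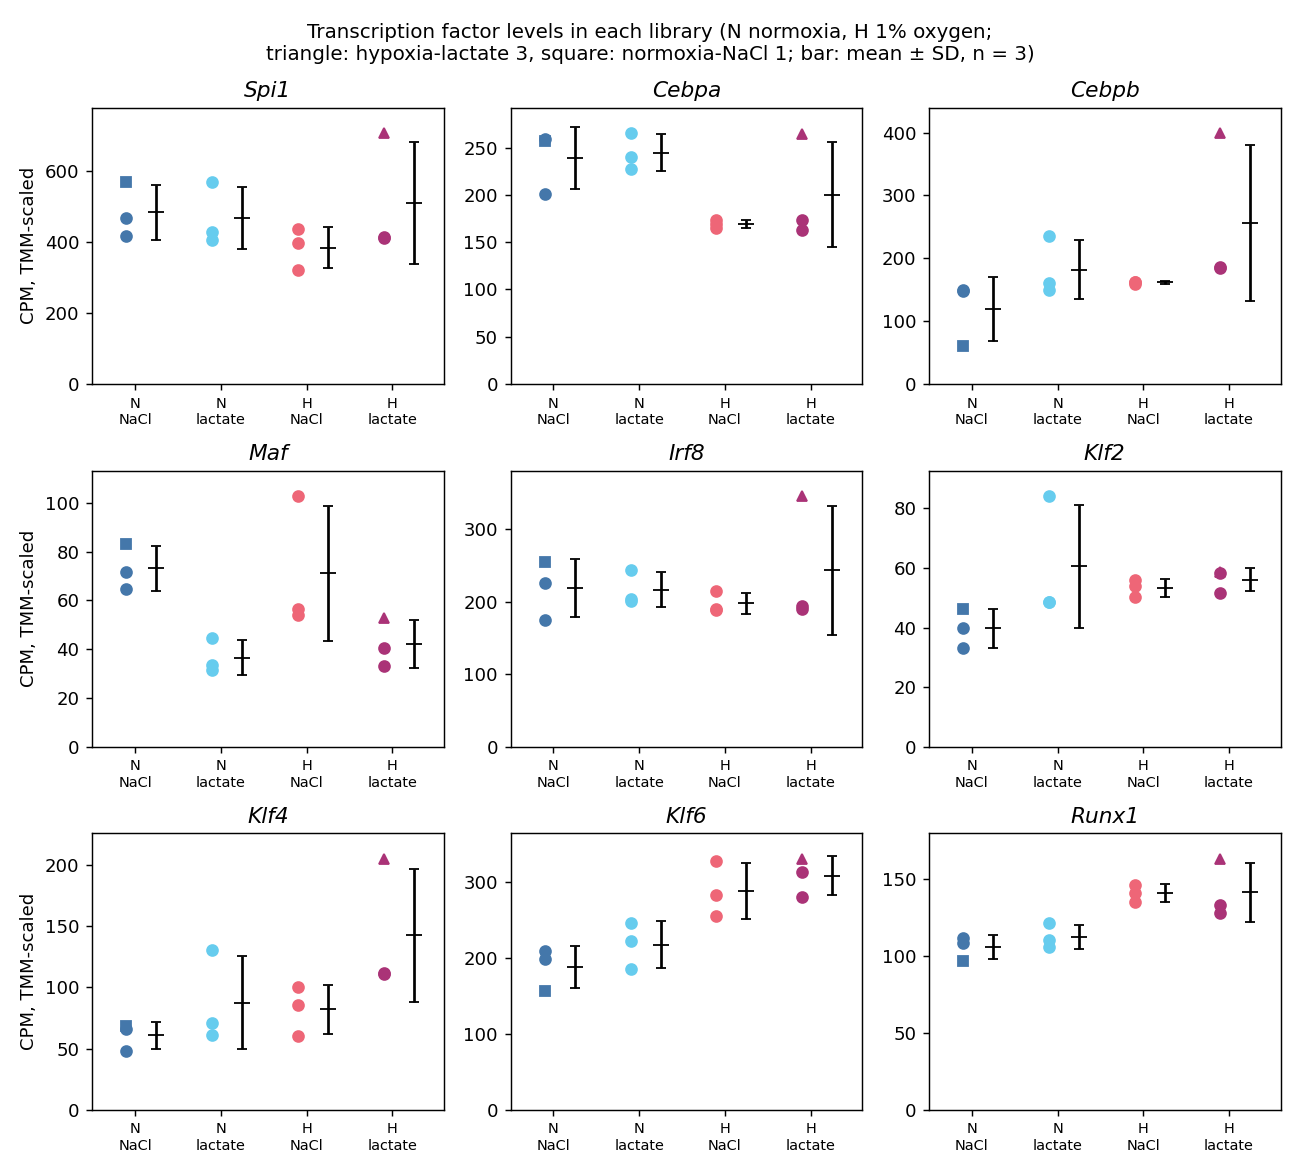
Level of each of the 9 factors (vertical axis, TMM-scaled CPM, linear from 0) in each of the 12 libraries by group (horizontal axis), with the mean and SD of 3 libraries beside the points. Klf6 lies at 157 to 246 CPM in the 6 normoxia libraries and 255 to 331 in the 6 at 1% oxygen, Maf at 53.9 to 103 with NaCl and 31.6 to 52.7 with lactate, and hypoxia-lactate 3 (triangle) is the highest point for Spi1, Cebpb, Irf8, Klf4, Klf6 and Runx1. On plain library totals, without TMM factors, Klf6 and Runx1 of hypoxia-lactate 3 fall inside the normoxia range, while Maf stays separated.

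At 1% oxygen the Krüppel-like factor gene Klf6 and the runt factor gene Runx1 were higher in all 6 libraries than in any of the 6 normoxia libraries on TMM-scaled CPM, whatever the medium. That held for 2.24% of all genes. Cebpa was lower in 5 of the 6, as for 2.74% of all genes with hypoxia-lactate 3 left out. With lactate, Maf was lower in all 6 libraries than in any of the 6 with NaCl, as for 0.281% of all genes. The oxygen separations depended on how hypoxia-lactate 3 was scaled: on CPM from plain library totals, tried after the data were seen, its Klf6 (246 CPM) and Runx1 (121 CPM) lay under the highest normoxia values (253 and 123 CPM). Its Cebpa (196 CPM) then lay under the lowest normoxia value (221 CPM). All 6 hypoxia libraries were thus below, as for 1.67% of all genes on that scale. Maf remained separated downwards by lactate, as for 0.301% of all genes. With all 12 libraries none of these passed the threshold of 0.05 on adjusted p (edgeR's quasi-likelihood test, Benjamini-Hochberg adjustment over 14616 genes). Without hypoxia-lactate 3, Klf6 and Cebpa passed for oxygen averaged over both media and Maf for lactate averaged over both oxygen levels. Of all genes, 7.59% passed for oxygen and 0.305% for lactate in that fit.

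KLF6 is a zinc finger factor linked to pro-inflammatory gene expression in macrophages. Klf6 (ENSMUSG00000000078) stood at 157, 199 and 209 CPM in normoxia-NaCl 1, 2 and 3 and at 185, 222 and 246 CPM in normoxia-lactate. At 1% oxygen it stood at 282, 255 and 328 CPM with NaCl and at 314, 280.0 and 331 CPM with lactate. On this scale the lowest hypoxia library lay above the highest normoxia library, which did not hold on plain totals, and the 2 media overlapped within each oxygen level. Averaged over both media, the log2 fold change for 1% oxygen was 0.56 ± 0.13 (SE, edgeR adjusted p = 0.0597). It was 0.53 ± 0.12 without hypoxia-lactate 3 (edgeR adjusted p = 0.0224) and 0.47 without normoxia-NaCl 1 as well (0.0187). Over 22 alternatives the adjusted p ran from 0.00171 to 0.212 and passed in 8, with a log2 fold change of 0.47 to 0.60. With the replicate number as a block it was 0.56 (edgeR adjusted p = 0.0418). The 2 media gave like values, 0.62 ± 0.18 with NaCl and 0.50 ± 0.18 with lactate, and their difference was -0.11 (95% interval -0.68 to 0.45).

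RUNX1 is needed for blood stem cells to form and binds beside PU.1 in myeloid cells. Runx1 (ENSMUSG00000022952) had 96.9, 109 and 112 CPM in normoxia-NaCl and 105, 121 and 110.2 CPM in normoxia-lactate. It had 141, 135 and 146 CPM in hypoxia-NaCl and 133, 128 and 163 CPM in hypoxia-lactate. As for Klf6, no hypoxia library reached down to a normoxia one on TMM-scaled CPM, but hypoxia-lactate 3 did on plain totals. The averaged log2 fold change was 0.37 ± 0.11 (edgeR adjusted p = 0.145), 0.31 ± 0.09 without hypoxia-lactate 3 (edgeR adjusted p = 0.0507) and 0.28 without both outlying libraries (0.0424), with 4 of 22 alternatives past the threshold. For lactate the averaged value was 0.05 (95% interval -0.20 to 0.29).

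C/EBPα drives the step from progenitor to granulocyte and monocyte precursor. Cebpa (ENSMUSG00000034957) had 257, 201 and 260 CPM in normoxia-NaCl and 241, 266 and 227 CPM in normoxia-lactate. Its level was 169, 174 and 165 CPM in hypoxia-NaCl and 163, 174 and 264 CPM in hypoxia-lactate. The 264 CPM came from hypoxia-lactate 3, and the other 5 hypoxia libraries all lay below the normoxia range, as all 6 did on plain totals. With all libraries the averaged log2 fold change for 1% oxygen was -0.39 ± 0.14 (edgeR adjusted p = 0.216). Without that library Cebpa fell by 0.52 ± 0.10 (edgeR adjusted p = 0.0101), and by 0.50 without both (0.00802). Over 22 alternatives the adjusted p was 0.00155 to 0.409 and passed in 5. In the fit without hypoxia-lactate 3 the log2 fold change was -0.50 with NaCl and -0.54 with lactate, neither of which passed alone (edgeR adjusted p = 0.0843 and 0.138).

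c-MAF, the product of Maf, is a large MAF factor that supports Il10 expression and resident-type macrophage genes. Maf (ENSMUSG00000055435) had 83.0, 64.8 and 71.6 CPM in normoxia-NaCl against 33.4, 44.7 and 31.6 CPM in normoxia-lactate. At 1% oxygen it had 53.9, 56.3 and 103 CPM with NaCl against 33.2, 40.3 and 52.7 CPM with lactate. Lactate libraries were below NaCl libraries at both oxygen levels, by a gap that was narrow only between hypoxia-lactate 3 and hypoxia-NaCl 1. The averaged log2 fold change for lactate was -0.88 ± 0.19 (edgeR adjusted p = 0.305). Without hypoxia-lactate 3 Maf fell by 0.97 ± 0.18 (edgeR adjusted p = 0.0459), and without both outlying libraries the value was -0.93 (0.0534). It passed in 4 of 22 alternatives, with an adjusted p of 0.0114 to 0.732 and a log2 fold change of -0.97 to -0.70. Lactate libraries had 0.499 times the NaCl level in normoxia (95% interval of the log2 fold change -1.60 to -0.40) and 0.592 times in hypoxia (-1.35 to -0.16). On the log2 scale these differed by 0.25 (95% interval -0.59 to 1.08). Oxygen moved Maf by 0.08 on average (95% interval -0.34 to 0.50).

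**Figure D2:**
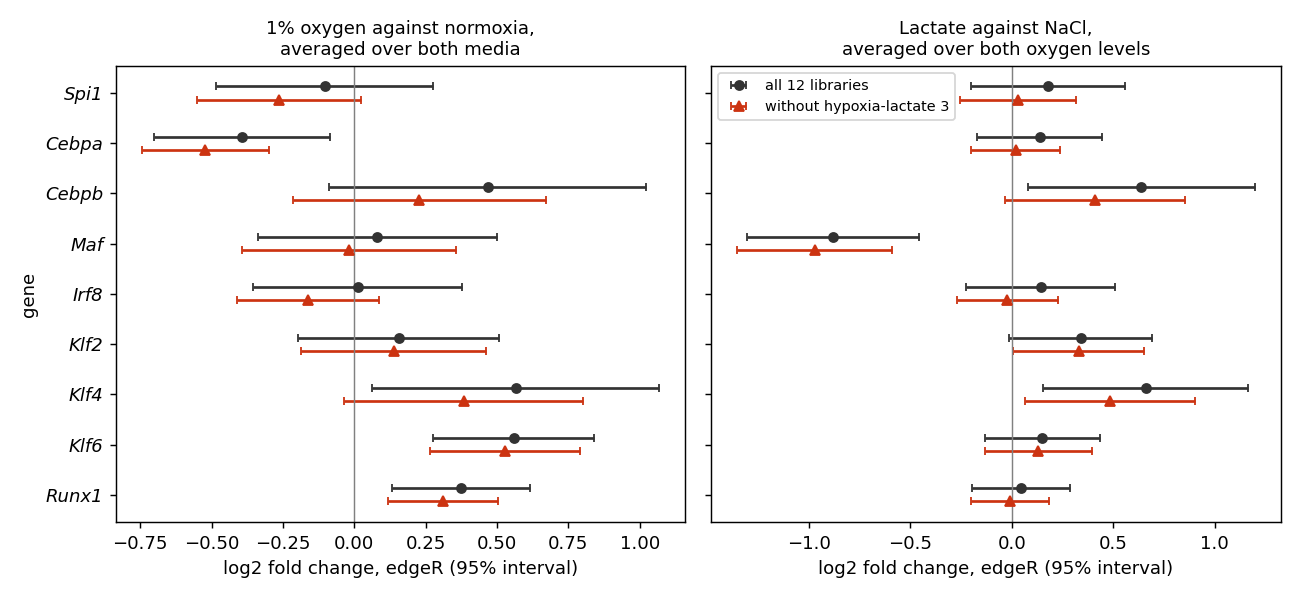
Log2 fold change of each factor with its 95% interval from edgeR, for 1% oxygen averaged over both media (left) and lactate averaged over both oxygen levels (right), with all 12 libraries (circles) and without hypoxia-lactate 3 (triangles). For oxygen, Klf6 and Runx1 lie at 0.56 and 0.37 and Cebpa at -0.39, and for lactate Maf lies at -0.88, each with an interval clear of 0 in both fits. The intervals are for single genes, without adjustment over all genes tested. With all 12 libraries none of these genes passed the threshold on adjusted p, and Runx1 did not without hypoxia-lactate 3 either.

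The pioneer factor gene Spi1 and Irf8, an interferon regulatory factor of the monocyte and dendritic lineages, were not called with either condition. Their 4 groups overlapped on TMM-scaled CPM. On plain totals Spi1 in hypoxia-NaCl (334 to 443 CPM) lay below normoxia-NaCl (459 to 491 CPM), as did 10.3% of all genes. Spi1 (ENSMUSG00000002111) had 569, 416 and 467 CPM in normoxia-NaCl, 429, 569 and 406 in normoxia-lactate, 435, 396 and 322 in hypoxia-NaCl, and 413, 410 and 708 in hypoxia-lactate. The 708 CPM, the highest value, belonged to hypoxia-lactate 3. The averaged log2 fold change for oxygen was -0.10 (95% interval -0.48 to 0.28, and -0.26 without hypoxia-lactate 3) and for lactate 0.18 (-0.20 to 0.56, and 0.03 without it). Irf8 (ENSMUSG00000041515) had 255, 175 and 226 CPM in normoxia-NaCl, 202, 244 and 204 in normoxia-lactate, 215, 190.3 and 189 in hypoxia-NaCl, and 194, 190.3 and 346 in hypoxia-lactate. Apart from the 346 CPM of hypoxia-lactate 3, all values lay within a 1.46-fold range. The averaged log2 fold change of Irf8 was 0.01 for oxygen (95% interval -0.35 to 0.38) and 0.14 for lactate (-0.22 to 0.51), and both changed sign without hypoxia-lactate 3, to -0.16 and -0.02.

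C/EBPβ is the C/EBP factor of inflammatory and alternative activation. Cebpb (ENSMUSG00000056501) had 60.2, 149 and 148 CPM in normoxia-NaCl, 161, 236 and 149 in normoxia-lactate, 163, 163 and 159 in hypoxia-NaCl, and 184, 186 and 400 in hypoxia-lactate. It spanned 6.64-fold over the 12 libraries and 1.59-fold without the 2 that stood apart, which held its lowest and highest values. For both conditions together, the log2 fold change was 1.11 ± 0.37 (edgeR adjusted p = 0.128), 0.64 without hypoxia-lactate 3 and 0.31 without both. The lactate average was 0.64 ± 0.26 with all libraries (edgeR adjusted p = 0.672), 0.41 without the first and 0.24 without both.

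KLF4 and KLF2 are close relatives: KLF4 promotes monocyte differentiation and KLF2 restrains myeloid activation. Klf4 (ENSMUSG00000003032) had 68.8, 65.7 and 48.5 CPM in normoxia-NaCl, 70.5, 131 and 61.3 in normoxia-lactate, 85.6, 100.2 and 60.3 in hypoxia-NaCl, and 111, 112 and 205 in hypoxia-lactate. All hypoxia-lactate values were above every NaCl value, and only normoxia-lactate 2 reached into their range. Of all genes, 9.39% had hypoxia-lactate separated above normoxia-NaCl and 6.69% above hypoxia-NaCl. The share with both was not counted. Both conditions together gave a log2 fold change of 1.23 ± 0.33 (edgeR adjusted p = 0.0805), and 0.87 without hypoxia-lactate 3 (0.0801), with 4 of 23 alternatives past the threshold. Klf2 (ENSMUSG00000055148) had 46.3, 39.7 and 33.2 CPM in normoxia-NaCl, 48.6, 84.2 and 48.6 in normoxia-lactate, 50.1, 53.8 and 55.8 in hypoxia-NaCl, and 51.6, 58.1 and 58.4 in hypoxia-lactate. The normoxia-NaCl group was the lowest and overlapped none of the other 3, which overlapped one another. Of all genes, 5.6% were separated upwards from normoxia-NaCl in normoxia-lactate, 12.8% in hypoxia-NaCl and 9.39% in hypoxia-lactate. The share with all 3 was not counted. On plain totals normoxia-NaCl overlapped hypoxia-lactate, where hypoxia-lactate 3 had 43.4 CPM against 43.8 in normoxia-NaCl 2. No Klf2 comparison passed: the largest log2 fold change was 0.61 ± 0.23, for lactate in normoxia (edgeR adjusted p = 1.00).

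Counted over the single comparisons, edgeR called 0 of the 9 genes with all 12 libraries in each. For low oxygen without lactate the background was 0.281% of all tested genes called, and 3 of the 9 (Cebpa, Klf6 and Runx1) had an unadjusted p under 0.05, against 6.49% of all genes. DESeq2 (1.05% of all genes called) and limma-voom (0.294%) also called 0. For low oxygen with lactate (0.226% called) Klf6 alone had an unadjusted p under 0.05, against 14.6%, with 0 called by DESeq2 (2.99%) and limma-voom (0.274%). For lactate in normoxia and in hypoxia edgeR called 0% of all genes. Unadjusted, Maf and Klf2 were under 0.05 in normoxia (1.55% of all genes) and Maf and Klf4 in hypoxia (11.4%), with 0 called by DESeq2 (0.0684% and 0.766%) and limma-voom (0% in both). For both conditions together (1.61% called), 5 genes had an unadjusted p under 0.05 (20.7%): Cebpb, Maf, Klf4, Klf6 and Runx1. There DESeq2 called 3, Cebpb, Klf4 and Klf6, beside 9.92% of all genes, and limma-voom 0 (1.67%). Without hypoxia-lactate 3, edgeR called Klf6, which rose by 0.66 on the log2 scale (edgeR adjusted p = 0.0460), and Maf, which fell by 0.99 (0.0433), beside 6.86% of all genes (3.6% higher, 3.26% lower). Without normoxia-NaCl 1 as well, both calls were lost: edgeR called 0 of 9, beside 5.98% of all genes, with an adjusted p of 0.0782 for Maf. The interaction, which asks whether the oxygen effect differs with lactate, had 0 of 9 called by edgeR, DESeq2 and limma-voom and 0 at an unadjusted p under 0.05, against 3.4% of genes. The tools called 0%, 0.00684% and 0% of all genes there.

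The averaged comparisons were added after the values had been seen. For oxygen, 1.38% of all genes were called and 0 of the 9 by edgeR, 2 by DESeq2 (Klf6 and Runx1, beside 5.88%) and 1 by limma-voom (Klf6, beside 1.57%), with 4 of 9 at an unadjusted p under 0.05 (Cebpa, Klf4, Klf6 and Runx1) against 15.2%. Without hypoxia-lactate 3, 2 of 9 were called beside 7.59% of genes, and without both outlying libraries 3 of 9 (Cebpa, Klf6 and Runx1) beside 8.94%. For lactate, 0.0342% of genes and 0 of the 9 were called by edgeR, 1 by DESeq2 (Maf, beside 0.705%) and 0 by limma-voom (0.0342%), with 3 of 9 at an unadjusted p under 0.05 (Cebpb, Maf and Klf4) against 6.99%. Without hypoxia-lactate 3, Maf was called beside 0.305% of genes, and 0.133% were called lower. All 6 hypoxia libraries exceeded all 6 normoxia libraries for 2.24% of genes, and all 6 lactate libraries were below all 6 with NaCl for 0.281%. Without hypoxia-lactate 3, Cebpa was among 2.74% of genes lower in every hypoxia library. In single comparisons separation of 3 against 3 was common: for low oxygen without lactate, Cebpb, Klf2, Klf6 and Runx1 were separated upwards (12.8% of all genes) and Cebpa downwards (12%). Klf6 and Runx1 were separated upwards by low oxygen with lactate (8.23%). Lactate separated Cebpb and Klf2 upwards (5.6%) and Maf downwards (6.16%) in normoxia, and Cebpb and Klf4 upwards (6.69%) and Maf downwards (9.3%) in hypoxia. On plain totals low oxygen with lactate separated 0 of the 9 upwards (6.18%) and Cebpb was not separated by lactate in normoxia. For both together, TMM-scaled CPM separated Cebpb, Klf2, Klf4, Klf6 and Runx1 upwards (9.39%) and Maf downwards (11.2%). Plain totals there separated Cebpb, Klf4, Klf6 and Runx1 upwards (7.16%) and Cebpa and Maf downwards (11.9%). The median log2 fold change of the 9 was 0.16 for oxygen and 0.15 for lactate, beside -0.01 and -0.00 over all genes.

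The 9 genes did not vary as one unit. Over the 11 libraries without hypoxia-lactate 3, Klf6 and Runx1 had a Pearson r of 0.92 on log2(CPM + 0.5), and 0.79 after group means were subtracted. Spi1, Irf8 and Cebpa formed a second set, with r of 0.84 for Spi1 and Irf8, 0.74 for Spi1 and Cebpa and 0.70 for Cebpa and Irf8, and within groups 0.85, 0.70 and 0.85. Klf2 and Klf4 had r of 0.79, and 0.78 within groups. Other pairs also had high values within groups: Spi1 with Klf4 (0.77) and Klf2 (0.61), and Cebpb with Runx1 (0.83). Across groups Cebpb with Runx1 had r of 0.58 over the 11 libraries, and 0.24 without normoxia-NaCl 1 as well. Cebpb had r of 0.46 with Klf2 and 0.48 with Klf4, which became 0.86 and 0.85 without normoxia-NaCl 1, while within groups over 11 libraries they were 0.02 and 0.15. Cebpa went against Klf6 (-0.82) and Runx1 (-0.81) across groups, but within groups these were -0.33 and -0.02. Across groups, Maf had r between -0.47 and 0.14 with each of the others, and within groups its highest was 0.57, with Klf2. These are descriptions over 11 libraries that share groups, scaling and depth.

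**Figure D3:**
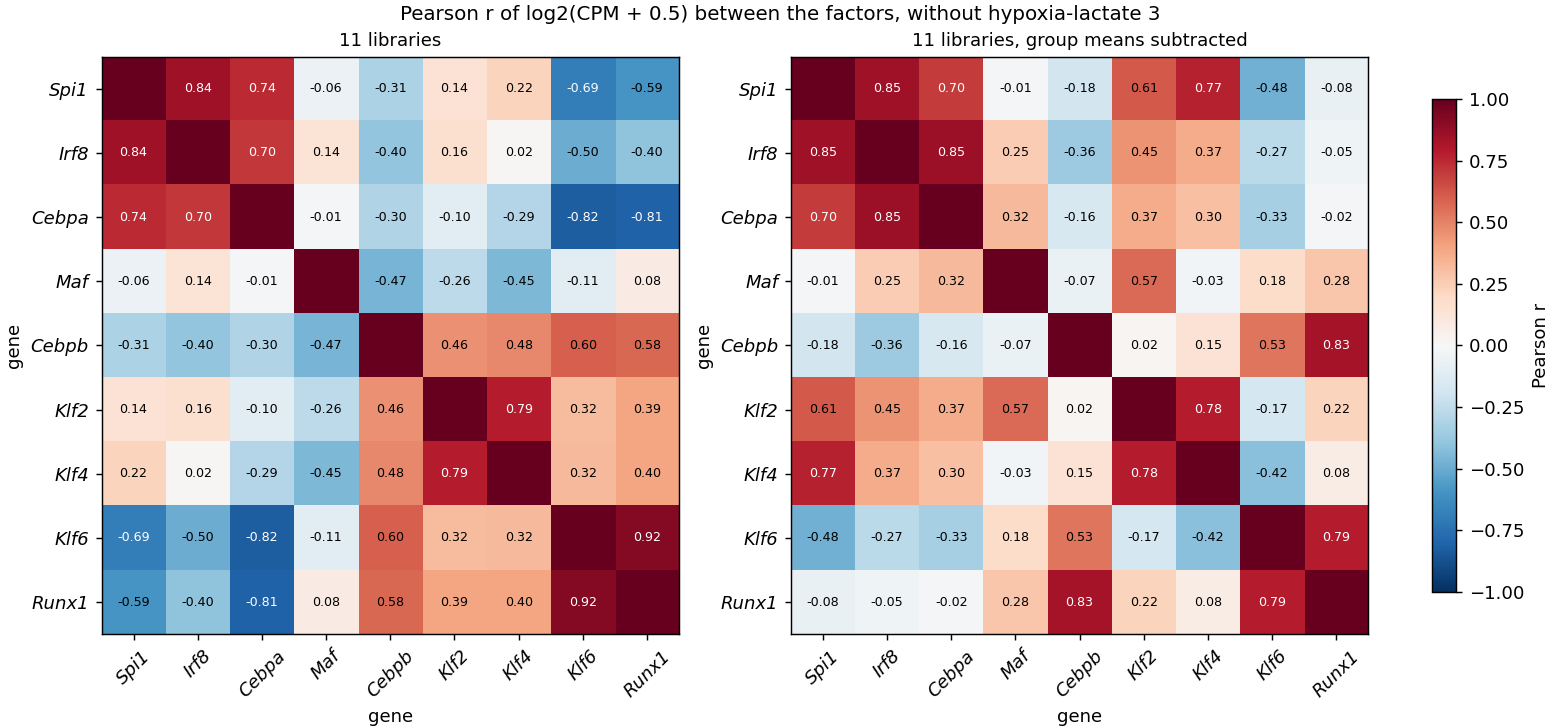
Pearson r of log2(CPM + 0.5) for each pair of the 9 factors (both axes) over 11 libraries, as measured (left) and with group means subtracted (right), red for positive and blue for negative. Klf6 with Runx1 (0.92 and 0.79), Klf2 with Klf4 (0.79 and 0.78) and Spi1 with Irf8 (0.84 and 0.85) are positive in both panels, while Cebpa with Runx1 is -0.81 on the left and -0.02 on the right.

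Among 9231 other genes of at least 5 CPM on average, the pattern most like Klf6 over those 11 libraries was that of Mmp13, a collagenase (r = 0.98, and 0.96 over all 12 libraries), followed by Son and Adam17. For Runx1 it was Sdc4, a syndecan (0.96 and 0.96), then Smox and Il15. Nearest to Cebpa were Pex6, a peroxisome biogenesis factor (0.95 and 0.88), Gpd1l and Slc12a9. Maf was matched best by Cfp, the complement regulator properdin (0.92 and 0.90), then Trim14 and Rsrc1. Spi1 was nearest to Rac2, a GTPase of blood cells, but this rested on leaving out hypoxia-lactate 3 (0.97, and 0.47 with it), and next to Map3k11 (0.97 and 0.96) and Emc10. Map7d1, Kif1c and Mon1a were nearest to Irf8, and Ywhag, Klf13 and Hinfp to Cebpb. With all 12 libraries r was much lower for Hinfp with Cebpb (0.95 to 0.14), Rsrc1 with Maf (0.90 to 0.25), Gpd1l with Cebpa (0.94 to 0.45) and Shb with Klf4 (0.93 to 0.61). Further drops included Kcnn4 with Klf2 (0.77 to 0.51), Arf6 with Klf2 (0.79 to 0.62) and Emc10 with Spi1 (0.96 to 0.70). Pdgfa, Stx11 and Shb were nearest to Klf4. Klf2 was most like Klf4 itself (0.79, and 0.70 over all 12 libraries), then Arf6 and Kcnn4.

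Relatives of the 9 in the ETS, C/EBP, MAF, IRF, KLF and RUNX families comprised 51 genes, of which 42 were tested. With all libraries 1 passed, for both conditions together: Ets2, an ETS factor downstream of MAP kinases, rose from 20.9 ± 3.94 to 66.8 ± 10.4 CPM (SD, n = 3), a log2 fold change of 1.68 ± 0.38 (edgeR adjusted p = 0.0477). For oxygen averaged over both media 0 passed by edgeR (1.38% of all genes), with 11 of the 42 at an unadjusted p under 0.05 (15.2%). The median log2 fold change of the 42 was 0.20 beside -0.01 over all genes. Without hypoxia-lactate 3, 6 relatives rose (3.91% of all genes) and 1 fell (3.68%). The small MAF gene Maff rose by 1.08 ± 0.26, the RUNX gene Runx3 by 0.93 ± 0.16 and Klf7 by 0.74 ± 0.15 on the log2 scale. Maff averaged only 5.68 CPM. By family, 8 of 9 tested KLF, 11 of 14 ETS, 4 of 5 C/EBP, 3 of 3 RUNX, 2 of 4 MAF and 3 of 7 IRF relatives had a positive value for oxygen in that fit. Irf7, an interferon response factor, fell by 0.78 ± 0.19, and it also fell with lactate, by 1.02 ± 0.19 (edgeR adjusted p = 0.0490). For both together in that fit Ets2 (1.80), Runx3 (1.30) and Klf7 (1.18) rose, and Irf7 (-1.79) and Elk1 (-0.67) fell, and for low oxygen without lactate Klf11 rose (0.83).

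**Figure D4:**
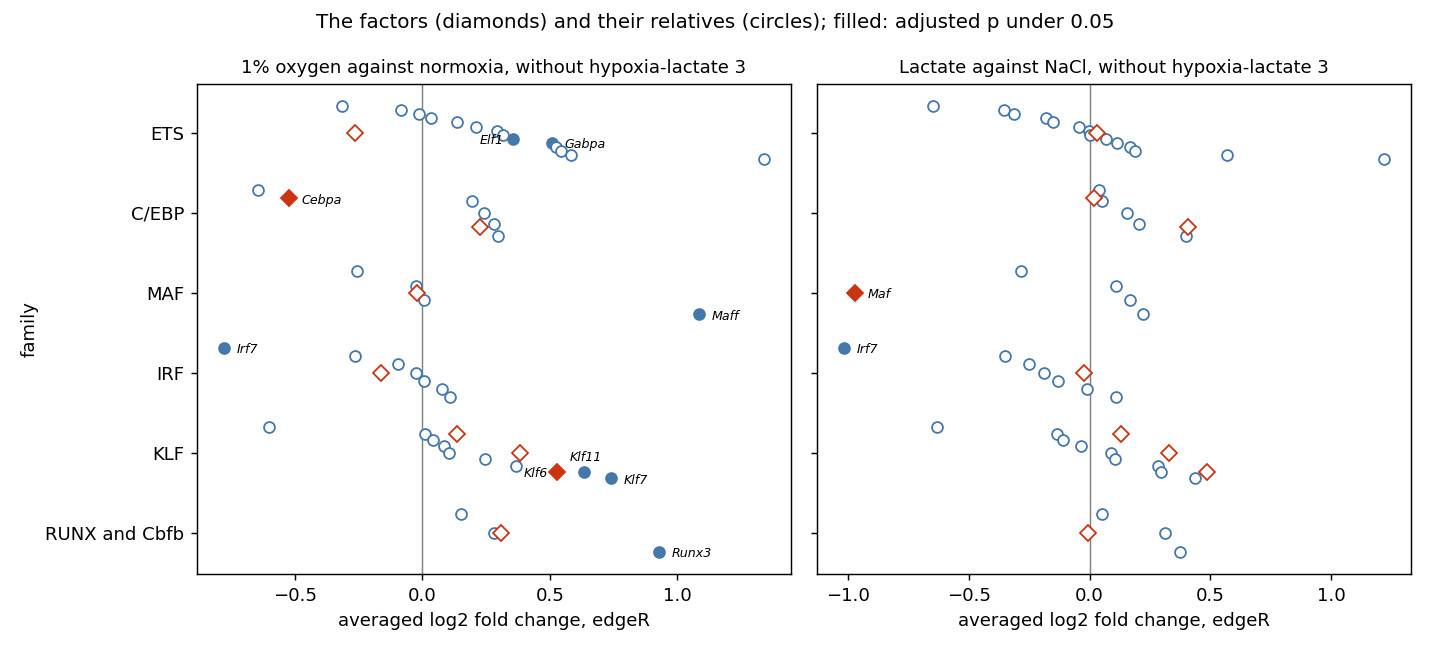
Averaged log2 fold change (horizontal axis) for 1% oxygen (left) and lactate (right), without hypoxia-lactate 3, for the 9 factors (red diamonds) and 42 tested relatives (blue circles) by family (vertical axis), filled where edgeR's adjusted p was under 0.05. For oxygen Cebpa and Klf6 are filled at -0.52 and 0.53 with 7 relatives, and for lactate Maf and Irf7 are filled at -0.97 and -1.02.

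Of 47 other myeloid transcription factors and regulators 44 were tested, and with all libraries Fosl2, an AP-1 subunit, rose, by 0.70 ± 0.14 for oxygen and 1.15 ± 0.19 for both together (edgeR adjusted p = 0.0258 and 0.0122). The median was 0.01 for oxygen. Without hypoxia-lactate 3, 3 rose for oxygen (Fosl2, Jun and Tcf4) and 3 fell, beside 3.91% and 3.68% of all genes. Those that fell were Rxra, a retinoid receptor (-0.62), Tfeb, a lysosomal regulator (-0.57), and Nr1h3, the liver X receptor gene (-0.40). For both together in that fit Fosl2 (1.04), Bhlhe41 (0.77) and Jun (0.73) rose and Nr1h3 fell (-0.73), and for low oxygen without lactate Fosl2 (0.73) and Tcf4 (0.50) rose. Among 22 immediate early genes, 21 of them tested, Ier3 rose for oxygen, by 1.37 ± 0.31 (edgeR adjusted p = 0.0493), with a median of 0.04 over the list. Without hypoxia-lactate 3, 4 rose (Ier3, Maff and Btg2 by the most, beside 3.91% of all genes) and 1 fell (3.68%). The last was the phosphatase gene Dusp2 (-1.43), which averaged only 2.35 CPM. For both together Ier3 (1.71), Jun (0.73) and Btg2 (0.73) rose in that fit, and Dusp2 fell both there (-2.54) and for low oxygen with lactate (-2.37). Genes known as targets of PU.1, C/EBP, IRF8 or MAF numbered 27, with 26 tested. For oxygen and for both together the LPS co-receptor gene Cd14 rose (0.82 ± 0.17 and 1.27 ± 0.24). The scavenger receptor gene Msr1 fell (-0.77 ± 0.17 and -1.07 ± 0.24), as did the mannose receptor gene Mrc1 (-1.52 ± 0.31 and -2.76 ± 0.46). The median over the 26 was 0.07 for oxygen and -0.08 for lactate. For lactate 0 targets passed by edgeR with all libraries (0.0342% of all genes), with 5 at an unadjusted p under 0.05 (6.99%). Without hypoxia-lactate 3 and for both together, 2 targets rose (Cd14 and Tlr4) and 6 fell, beside 3.6% and 3.26% of all genes. Falling by the most were the complement gene C1qa (-2.49), Mrc1 (-2.38) and Mertk (-2.08). For oxygen averaged 2 rose (Cd14 and Tlr4, beside 3.91% of all genes) and 3 fell (Mrc1, Mertk and Msr1, beside 3.68%). For low oxygen without lactate Cd14 (0.99) and Tlr4 (0.68) rose and Mrc1 fell (-1.26). In that fit and for lactate averaged, Mertk, a receptor for apoptotic cells, fell by 1.30 ± 0.21 (edgeR adjusted p = 0.0270).

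Among the marker lists, Cd14 and Mrc1 are also 2 of the 10 macrophage markers, and Ighm, an immunoglobulin chain, rose by 0.82 ± 0.17 for oxygen (edgeR adjusted p = 0.0382). The lymphocyte sum was 34.3 to 58.9 CPM in hypoxia-NaCl and 16.8 to 30.2 in the other groups. With all 12 libraries 0 neutrophil, dendritic, progenitor, fibroblast, endothelial or mast, erythroid and megakaryocyte markers were called by edgeR in any comparison. For oxygen, 3, 1, 0, 0, 0 and 1 of them in that order had an unadjusted p under 0.05, against 15.2% of all genes. Without hypoxia-lactate 3 the neutrophil markers Mmp8 and Cxcr2 (only 1.53 CPM on average) rose and the dendritic marker Bst2 fell for oxygen. The neutrophil list as a whole had 5 positive of 13 tested values and a median of -0.36 in that fit. The part of other cell types in the levels of the 9 factors was not tested.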

How the data were processed

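Poly(A) RNA of 12 mouse macrophage libraries was isolated on Dynabeads, converted to libraries (Ion Total RNA-Seq kit) and sequenced on a Proton instrument, per the labels' protocols. The authors deposited raw read counts per Ensembl gene, made with BWA, HTSeq and the build mm9 according to the submitters' processing notes. Not given in the sources used here: tool versions, annotation release and strand setting. Of 37620 identifiers, 32897 had a symbol, as did 14122 of the 14616 tested genes. The 5 counters that name no gene were left out of library sizes: reads without a unique alignment were 8.34% to 18.4% per library, reads in no feature 13.7% to 22.0%, reads not aligned 2.02% to 5.48%, ambiguous reads 0.361% to 0.442%, and low-quality reads 0.

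Counts were fitted once over all 12 libraries with edgeR 4.0.16 in R 4.3.3 (filterByExpr, TMM factors, quasi-likelihood F test), with Benjamini-Hochberg adjustment over all tested genes and a threshold of 0.05. SE is the log2 fold change over the root of F. The script was tested on simulated data. The alternatives, 23 for each comparison of 2 groups, covered scaling, filters, DESeq2 1.42.0, limma 3.58.1 (voom, with and without library quality weights), the replicate number as a block, and leaving out libraries. The averaged contrasts, the levels on plain library totals and the CACGTG count were chosen after the data were seen.

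The 9 genes and the 12 gene lists (198 symbols, all with an identifier) were chosen with earlier results of these data known. All 9 genes are named, with up to 3 genes of each factor, target or immediate early list per direction and comparison past the threshold, largest log2 fold change first, and the 3 genes with the highest r for each factor. The lists are relatives, other myeloid factors, targets, immediate early genes, and markers of macrophages, neutrophils, dendritic cells, progenitors, fibroblasts, endothelium, lymphocytes, and mast, erythroid and megakaryocyte cells. Replicate numbers come from the labels. Deviations of same-numbered libraries correlated at 0.149, 0.380 and 0.201 for low oxygen without lactate, which was taken as pairing, while in each other comparison at least 1 pair lay under 0.1. The main fit left this pairing out, and the replicate number entered only as a block among the alternatives. For low oxygen without lactate the block called 0 of the 9 (0.281% of all genes). Without hypoxia-lactate 3 it called Klf6 (edgeR adjusted p = 0.0254, 5.08%).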

Additional observations from a re-analysis of the deposited data

How the results depend on the processing

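Over 72 combinations of gene and comparison, 122 of 1629 alternative values had another sign and 38 passed the threshold. Shares in parentheses are of all genes called. For low oxygen without lactate 1 of the 9 genes was called with quality weights (3.59%), and for low oxygen with lactate 2 (5.04%). For both conditions together DESeq2 called 3 (9.92%) and quality weights 3 (7.38%), and leaving out 1 library gave 0 to 2: 1 without hypoxia-lactate 2 (4.6%) and 2 without hypoxia-lactate 3 (6.86%). For oxygen averaged over both media the count was 1 with upper-quartile factors (1.16%), 1 with a mean of at least 5 CPM (2.07%), 2 with DESeq2 (5.88%), 1 with limma-voom (1.57%), 4 with quality weights (15.1%), 3 without both outlying libraries (8.94%), and 0 to 2 without 1 library. For lactate averaged over both oxygen levels it was 1 with DESeq2 (0.705%), 1 with quality weights (1.18%) and 0 to 1 without 1 library, the 1 being without hypoxia-lactate 3 (0.305%). The cause was not tested.

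With the replicate block, 1 gene was called for oxygen averaged over both media (Klf6, edgeR adjusted p = 0.0418, 1.59%) and no other call changed. With the block and without hypoxia-lactate 3 the counts were 1 for low oxygen without lactate (Klf6, 5.08%), 3 for both together (Maf, Klf4 and Klf6, 14%), 3 for oxygen averaged (Cebpa, Klf6 and Runx1, 14.7%) and 1 for lactate averaged (Maf, 1.7%).

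None of the values that changed sign passed the threshold. Among the largest were those without hypoxia-lactate 3 for the Cebpb interaction (0.06 to -0.41), for Spi1 under both together (0.08 to -0.23) and for Irf8 under low oxygen with lactate (0.17 to -0.18). Upper-quartile factors moved the median of all genes for low oxygen with lactate from -0.03 to -0.16. For oxygen averaged, Maf was -0.0128 with upper-quartile factors, -0.0620 with quality weights, -0.00815 with the replicate block without hypoxia-lactate 3, and -0.103 to 0.154 without 1 library. Irf8 was -0.0930, -0.0691 and -0.170 under the same alternatives, -0.0108 with a mean of at least 5 CPM, -0.00995 with limma-voom, -0.000250 with the block, -0.103 without both, and -0.162 to 0.0797 without 1 library. For lactate averaged, the block without hypoxia-lactate 3 gave -0.00613 for Spi1 and -0.0231 for Irf8. Irf8 was -0.0170 with quality weights and -0.0214 to 0.222 without 1 library. Runx1 was -0.0254 with upper-quartile factors, -0.0500 with quality weights, -0.0418 without both, and -0.00637 to 0.0843 without 1 library.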
